A study of Mus musculus with 6 samples.

Results

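Nuclear receptors act on their target genes through cofactor proteins. A thyroid hormone receptor without hormone holds a corepressor complex, in which a large scaffold protein carries a histone deacetylase that removes acetyl groups from histones. Binding of triiodothyronine (T3) releases this complex and recruits coactivators, which bring histone acetyltransferases and the Mediator complex to the gene. In fat cells the same cofactors also serve peroxisome proliferator-activated receptor gamma, the receptor that drives fat cell differentiation. The mRNA levels of 9 such cofactor genes were described in inguinal white adipose tissue (iWAT), which lies under the skin. The corepressor complex was represented by Ncor1, Hdac3, Tbl1x, Tbl1xr1 and Gps2, and the coactivators by Ncoa1, Ncoa2, Ncoa3 and Med1. The genes were chosen by name, all 9 were among the 55573 genes listed, and all 9 passed the filter on low values, as did 16868 genes in all.

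RNA-seq was performed on inguinal fat of 3 mutant and 3 Wt male mice, 3 months old, on a regular chow diet and without treatment, with 1 library per mouse. The mutant mice were homozygous for THRA K283Q/K288R, a knock-in of 2 amino acid substitutions at sumoylation sites of thyroid hormone receptor alpha, made in the C57BL/6NTac strain. The Wt mice were C57BL/6NTac animals bred in-house. The mutation was global, so it was carried by all cells of the depot and by all other organs. Values are reads per gene in CPM scaled by a further factor for each mouse, and the libraries held 19607423 to 24228381 reads on genes. The 9 genes had between 562 and 6508 reads in a mouse, far above 3 reads, which corresponded to a value of 0.126 to 0.157. Thra itself, whose substitutions cannot be seen in a value per gene, was at 147, 128 and 117 in Wt mice and 170, 140 and 137 in mutant mice. In whole tissue, fewer cells of a type and less RNA per cell cannot be told apart. Adipocyte markers were abundant in every mouse, with summed values of the 7 markers of 19417 to 27741 in Wt and 14908 to 23368 in mutant mice. The log2 fold change was below 0 for 6 of the 7 markers. The exception was Lep, at 813, 680 and 549 in Wt mice and 1120, 1389 and 781 in mutant mice, with overlap.

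None of the 9 cofactor genes passed the threshold of 0.05 between the genotypes after adjustment over all genes tested (limma with trend, adjusted p of 0.133 to 0.55). The count was also 0 of 9 with edgeR's quasi-likelihood test and with DESeq2's Wald test, and 2 of 9, Gps2 and Ncoa2, had an unadjusted p under 0.05 with limma. Among all genes tested, 8.11% passed the adjusted threshold in either direction, 5.5% as higher and 2.61% as lower in mutant mice, and 24.2% had an unadjusted p under 0.05. Mean values were lower in mutant mice for 7 of the 9 genes and higher for Tbl1x and Ncoa1. Of all genes tested, 56.5% had a log2 fold change below 0. The median log2 fold change was -0.18 over the 5 corepressor genes and -0.24 over the 4 coactivator genes, where the median of all genes tested was -0.05. In 3 of the 9 genes, Ncor1, Ncoa1 and Ncoa2, the mice of the genotypes did not overlap, and the share of such genes among all genes tested was 30.6%.

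**Figure D1:**
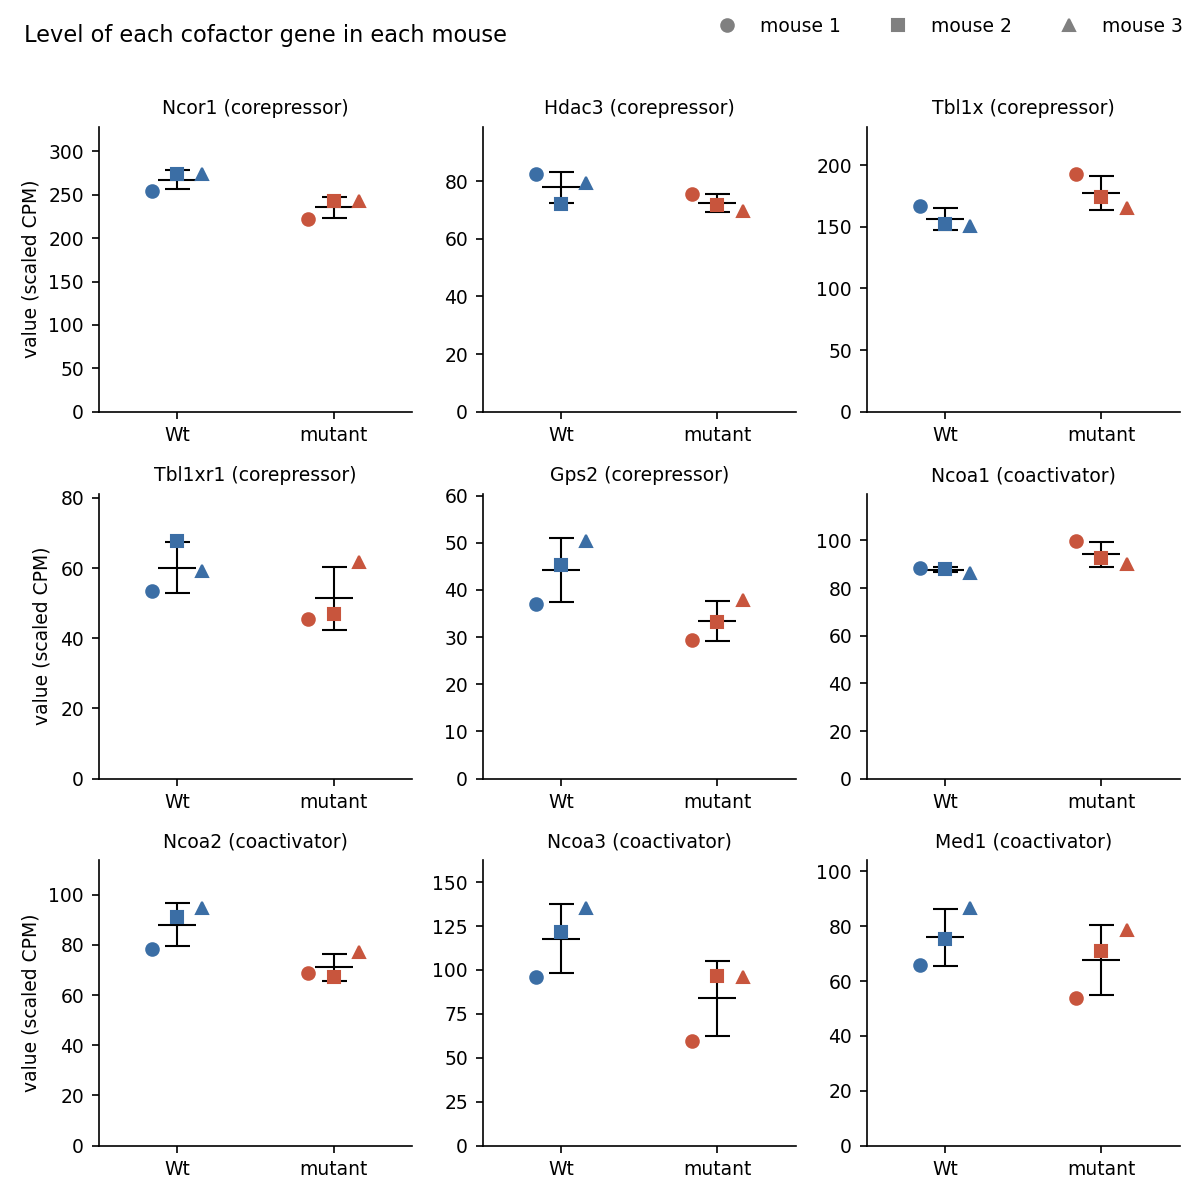
Level of each of the 9 cofactor genes in each mouse, as the deposited value in scaled CPM on a linear axis from 0. Symbols are single mice, and the black bars are the mean and SD of 3 mice. The Wt and mutant mice are apart for Ncor1, Ncoa1 and Ncoa2 and overlap for the other genes.

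Ncor1 encodes the nuclear receptor corepressor NCoR, the scaffold that binds the receptor and holds the deacetylase (ENSMUSG00000018501, GRCm38 chr11:62316426-62458541, minus strand). It had the highest value of the 9 genes, above those of 97.2% of the genes tested. The Wt mice were at 255, 274 and 274, and the mutant mice at 222, 243 and 242. Every mutant mouse was below every Wt mouse, with 12.1 (SD) around the mutant mean of 236 and 10.9 (SD) around the Wt mean of 268 (n = 3 each). The log2 fold change was -0.18 (SE 0.08, 95% interval -0.38 to 0.02), with an adjusted p of 0.245 by limma. The interval of the ratio, from 0.767 to 1.01, included no difference. Ncor1 shares 82 exonic bases with Pigl on the other strand, which had 0.0506 of its level.

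Hdac3 encodes the histone deacetylase that NCoR activates (ENSMUSG00000024454, GRCm38 chr18:37935844-37955016, minus strand). Its values were 82.5, 72.0 and 79.3 in Wt mice and 75.7, 71.9 and 69.5 in mutant mice, and the genotypes overlapped. The log2 fold change was -0.10 (SE 0.08, 95% interval -0.30 to 0.09), with an adjusted p of 0.462 by limma. Without Wt mouse 1 it was -0.06, and without Wt mouse 2 it was -0.16. Gps2, the smallest gene of the complex, encodes a subunit that joins the scaffold to the TBL1 proteins (ENSMUSG00000023170, GRCm38 chr11:69913888-69916591, plus strand). The Wt mice were at 37.0, 45.2 and 50.4 and the mutant mice at 29.5, 33.1 and 37.9, so that the highest mutant mouse lay just above the lowest Wt mouse. The mean was 24.2% below that of Wt mice. The log2 fold change of Gps2 was -0.39 (SE 0.15, 95% interval -0.74 to -0.04), with an adjusted p of 0.167 by limma.

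Tbl1x and Tbl1xr1 encode a pair of related WD-repeat proteins that bind NCoR and take part in the exchange of corepressors for coactivators. The means of the pair lay in opposite directions. Tbl1x (ENSMUSG00000025246, GRCm38 chrX:77511013-77662983, plus strand) was at 167, 152 and 150 in Wt mice and 193, 174 and 165 in mutant mice. The lowest mutant mouse was within the Wt range and the other 2 were above it, and the log2 fold change of 0.18 (SE 0.09, 95% interval -0.04 to 0.40) had an adjusted p of 0.289 by limma. Tbl1xr1 (ENSMUSG00000027630, GRCm38 chr3:22076652-22216594, plus strand) was at 53.3, 67.7 and 59.3 in Wt mice and 45.5, 47.0 and 61.8 in mutant mice. Here 2 mutant mice were below all Wt mice and mutant mouse 3 was within the Wt range. Its log2 fold change of -0.23 (SE 0.15, 95% interval -0.59 to 0.13) had an adjusted p of 0.383 by limma. It was -0.14 without Wt mouse 2, -0.15 without mutant mouse 1 and -0.37 without mutant mouse 3, and that of Tbl1x was 0.12 without mutant mouse 1.

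Reads can be assigned with certainty to 1 of 2 paralogues only where their sequences differ. The transcripts of Tbl1x and Tbl1xr1 shared no stretch of 50 bases, and their longest identical stretch, shown to give the scale of their likeness, had 20 bases. It is coding sequence and crosses an exon junction in both genes (longest coding transcripts of GENCODE M21), from exon 12 to 13 of Tbl1x and from exon 13 to 14 of Tbl1xr1.
Tbl1x and Tbl1xr1: aagatctggagtatgaagca
The steroid receptor coactivators Ncoa1, Ncoa2 and Ncoa3 also shared no stretch of 50 bases with each other. The longest identical coding stretch of Ncoa2 and Ncoa3 had 20 bases, within exon 4 of Ncoa2 (GRCm38 chr1:13221417-13221436, minus strand) and of Ncoa3 (chr2:166047826-166047845, plus strand).
Ncoa2 and Ncoa3: aagtacatagaggagctggc
The longest coding stretch shared by Ncoa1 and Ncoa2 had 14 bases. Of the 50-base stretches of Gps2, 3.57% were shared with the processed pseudogene Gm5221, which had a value of at most 0.0486 in any mouse. Of those of Ncor1, 92 were shared with the pseudogene Gm6743, which was at 0 in all mice. Only annotated transcripts were searched.

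Ncoa1, Ncoa2 and Ncoa3 encode the p160 coactivators SRC-1, TIF2 and AIB1, which bind hormone-bound receptors and recruit histone acetyltransferases. Ncoa1 (ENSMUSG00000020647, GRCm38 chr12:4247362-4477182, minus strand) was the steadiest of the 3 genes, at 88.6, 88.2 and 86.4 in Wt mice and 99.8, 92.6 and 90.0 in mutant mice. Every mutant mouse was above every Wt mouse, but the nearest mice were mutant mouse 3 at 90.0 and Wt mouse 1 at 88.6. The log2 fold change was 0.10 (SE 0.07, 95% interval -0.07 to 0.27, adjusted p = 0.429 by limma), and it was 0.06 without mutant mouse 1. Ncoa2 (ENSMUSG00000005886, GRCm38 chr1:13139105-13374083, minus strand) was at 78.3, 91.1 and 94.7 in Wt mice and 69.0, 67.2 and 77.2 in mutant mice. The mutant mice were all below the Wt mice, with a mean 19.2% lower. The log2 fold change of Ncoa2 was -0.30 (SE 0.10, 95% interval -0.55 to -0.06) and its adjusted p of 0.133 by limma was the smallest of the 9 genes.

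Ncoa3 (ENSMUSG00000027678, GRCm38 chr2:165992636-166073242, plus strand) had the largest difference of the means among the 9 genes and also the widest spread. The Wt mice were at 96.3, 122 and 135, and the mutant mice at 59.3, 96.7 and 96.0. Mutant mouse 1 was far below all other mice, while the other 2 mutant mice lay at the level of Wt mouse 1. The log2 fold change was -0.51 (SE 0.22, 95% interval -1.04 to 0.03), with an adjusted p of 0.23 by limma, and it was -0.27 without mutant mouse 1. Ncoa3 shares 154 exonic bases at its end with Sulf2 on the other strand, a gene with a mean value 2.66 times as high (Sulf2 log2 fold change -0.22, adjusted p = 0.415 by limma). The use of strand in the counting is not given in the sources used here, so reads of this stretch cannot be told apart.

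Med1 encodes the Mediator subunit that contacts hormone-bound nuclear receptors (ENSMUSG00000018160, GRCm38 chr11:98152154-98193293, minus strand). The Wt mice were at 65.7, 75.5 and 86.6 and the mutant mice at 53.8, 70.9 and 78.7, with wide overlap. Its log2 fold change of -0.17 (SE 0.17, 95% interval -0.57 to 0.23) had the highest adjusted p of the 9 genes, 0.55 by limma. This value was -0.01 without mutant mouse 1, -0.07 without Wt mouse 3, -0.27 without Wt mouse 1 and -0.29 without mutant mouse 3.

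The order of the mice within a genotype was alike for several of the cofactor genes. Ncor1, Tbl1xr1, Gps2, Ncoa3 and Med1 were lowest in mouse 1 of both genotypes, and Hdac3, Tbl1x and Ncoa1 were highest in mouse 1 of both. Mouse 1 of each genotype was also the one with the lowest level of 8 lymphoid markers (genes of B and T cells, as an inguinal lymph node holds). Their mean on the log2(value + 0.5) scale was 5.64, 6.70 and 6.93 in Wt mice and 0.97, 6.09 and 6.54 in mutant mice, with summed values of 1004 to 1759 in Wt and 497 to 1416 in mutant mice. None of the 8 was called between the genotypes, and none was at 0 in all mice. Mouse 1 of both genotypes also had the highest mean of the 7 adipocyte markers on this scale. The same held for the progenitor markers described below. The mean of the mesothelium markers, also described below, was 0.25, -0.33 and 0.23 in Wt and 2.90, 2.14 and 2.46 in mutant mice. In Wt mice, mouse 1 and mouse 3 were thus close, and mouse 1 had a high Krt19 value (28.5, against 2.72 and 2.94). The mean of the epithelium markers was highest in Wt mouse 1 and in mutant mouse 2. The part of any of these markers in the levels of the cofactor genes was not tested. Without mouse 1 of either genotype, 1 of 9 cofactor genes passed the threshold by limma, Ncoa3 (log2 fold change -0.41, adjusted p = 0.0334, in a range of 0.0177 to 0.503 over the 19 alternatives tried). In that fit 13.6% of all genes were called.

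Markers of 3 further cell types or tissues had higher means in mutant mice. Of 8 mesothelium markers (the lining of body cavities), 7 were higher in mutant mice by limma, with summed values of 4.72 to 31.6 in Wt and 37.8 to 75.9 in mutant mice. The marker not called was Krt19, whose value of 28.5 in Wt mouse 1 made up most of the upper Wt sum. The mean of 8 skeletal muscle markers was 9.72, 10.3 and 9.36 on the log2 scale in Wt mice and 11.3, 10.6 and 11.2 in mutant mice, and 1 of the 8 was called, as higher. Their summed values were 10921 to 23391 in Wt and 17602 to 27440 in mutant mice. All 3 means of the muscle markers in mutant mice lay above the Wt range. The marker called was Myh1, at 31.1, 279 and 166 in Wt mice and 2405, 1986 and 2385 in mutant mice. Myh2 and Mylpf also did not overlap between the genotypes. Acta1, Ckm, Myh4, Tnnt3 and Tnni2 overlapped, and the log2 fold change of Myh4 was -0.12. The cofactor genes are known to be expressed in muscle too. The summed values of 6 progenitor markers (precursors of fat cells) were 1754 to 2090 in Wt and 2123 to 2948 in mutant mice, without overlap. Of these 6 markers 5 had a log2 fold change above 0, 3 had an unadjusted p under 0.05 and none was called by limma. The macrophage and endothelium markers, 5 of each, and the 6 epithelium markers held no call. How far these cells contributed to the levels of the 9 genes was not tested.

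**Figure D2:**
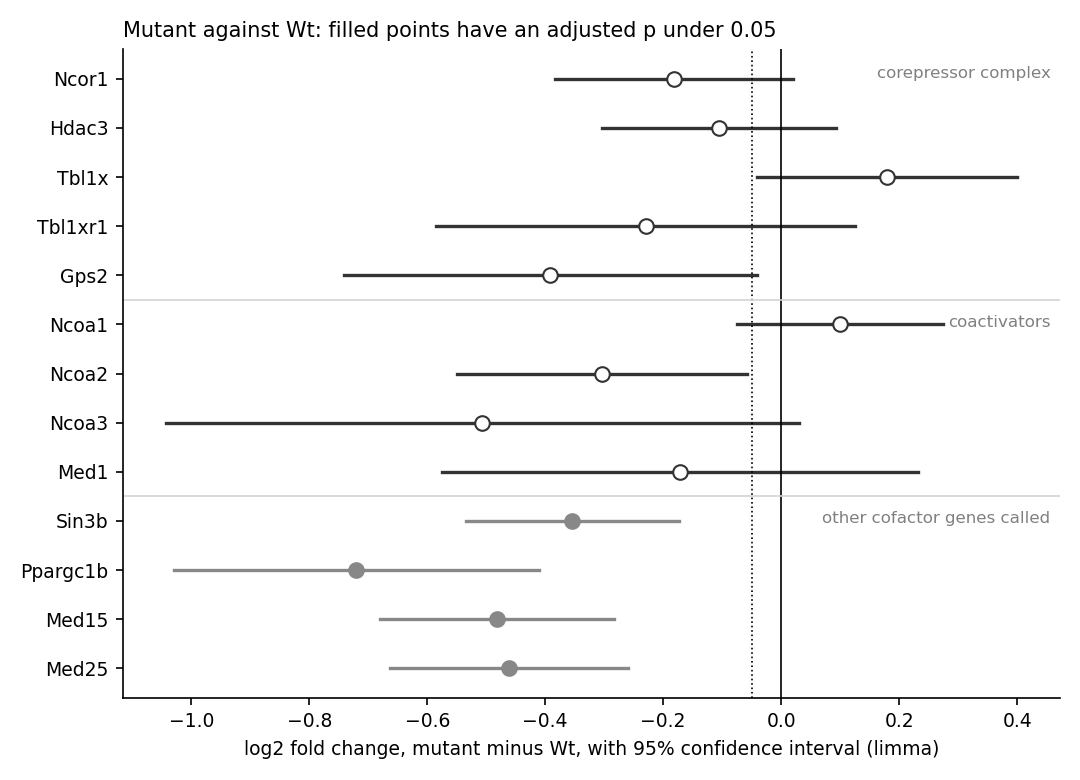
Log2 fold change of mutant minus Wt mice with its 95% confidence interval from limma, for the 9 cofactor genes and 4 other cofactor genes that were called. The dotted line is the median of all genes tested (-0.05), and filled points have an adjusted p under 0.05. The intervals of 7 of the 9 genes include 0, and those of Gps2 and Ncoa2 lie below it.

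Levels were compared between genes per kilobase of the longest protein-coding transcript. In Wt mice the value per kilobase was 38.4 ± 2.65 for Hdac3, 33.7 ± 5.12 for Gps2, 29.9 ± 1.74 for Tbl1x and 29.6 ± 1.21 for Ncor1 (SD, n = 3). Neighbours among these 4 genes of the corepressor complex overlapped between mice. The coactivators followed, with 15.6 ± 2.63 for Ncoa3, 12 ± 0.156 for Ncoa1, 10.8 ± 1.05 for Ncoa2 and 9.46 ± 1.30 for Med1 per kilobase. In this order Ncor1 did not overlap with Ncoa3, nor Ncoa3 with Ncoa1, nor Ncoa1 with Ncoa2, whereas Ncoa2 overlapped with Med1. Tbl1xr1 was lowest, at 7.30 ± 0.876 per kilobase, and overlapped with Med1. So 4 of the 5 corepressor genes were above all 4 coactivator genes, and Tbl1x was above its paralogue Tbl1xr1 in every mouse. The order among the upper 4 depended on the length used. Per kilobase of all annotated exons, Hdac3 was at 19.2, below Gps2 at 27.6, Tbl1x at 22.2 and Ncor1 at 20.9, and Ncoa2 was lowest at 5.63. In mutant mice, Gps2 was at 25.5 per kilobase of the longest transcript, below Tbl1x at 33.9 and Ncor1 at 26.1, and Ncoa3 at 11.2 was below Ncoa1 at 12.8.

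Ratios of 2 genes within a mouse do not depend on the scaling of the library. Of 8 ratios among the cofactors, 3 did not overlap between the genotypes, and among all pairs of genes tested the share was 32.7%. They are given as values, with no test. The ratio of Ncor1 to Tbl1x was 1.53, 1.80 and 1.82 in Wt mice and 1.15, 1.40 and 1.47 in mutant mice. The ratio of Ncoa1 to Ncoa2 was 1.13, 0.967 and 0.912 in Wt mice and 1.45, 1.38 and 1.17 in mutant mice. These are ratios of values that are not divided by length, so only their difference between the genotypes is described. The ratio of Ncoa1 to Ncoa3 was 0.92, 0.723 and 0.639 in Wt mice and 1.68, 0.958 and 0.938 in mutant mice, with the nearest mice close together. The ratios of Ncor1 to Hdac3, Tbl1xr1 and Gps2 overlapped, as did those of Tbl1x to Tbl1xr1 and Ncoa2 to Ncoa3.

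**Figure D3:**
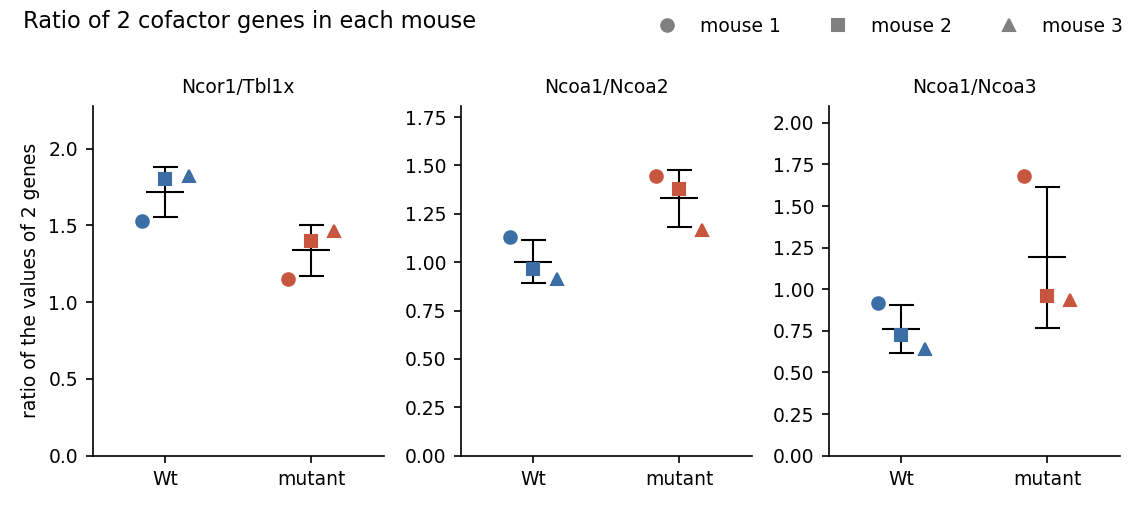
Ratio of the values of 2 cofactor genes in the same mouse, on linear axes from 0. Symbols are single mice, and the black bars are the mean and SD of 3 mice. In these 3 ratios, out of 8 given, no mutant mouse is within the range of the Wt mice.

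The other genes of the pathway were 14 further corepressors, 16 further coactivators and 32 other Mediator genes, and all 62 were tested. By limma, 5 of the 62 were called (8.06%, against 8.11% of all genes tested in either direction). All 5 were lower in mutant mice, and 2.61% of all genes tested were called as lower. The median log2 fold change of the 62 genes was -0.16, and it was below 0 for 74.2% of them, against 56.5% of all genes tested. Of the genes called, Sin3b, Ppargc1b, Med15 and Med25 are described. Sin3b, a scaffold of another deacetylase complex, was lower by 21.9% if taken from the means of 81.2 in Wt and 63.5 in mutant mice (adjusted p = 0.0393 by limma). Ppargc1b encodes PGC-1 beta, a coactivator of mitochondrial genes. It was at 12.7, 11.3 and 12.4 in Wt mice and 6.34, 8.03 and 7.16 in mutant mice (log2 fold change -0.72, adjusted p = 0.0223 by limma). The Mediator genes Med15 and Med25 had log2 fold changes of -0.48 and -0.46, with adjusted p of 0.0194 and 0.0238 by limma.

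These 4 genes are rich in G and C, and the fold change of all genes followed GC content. In 20 bins of equal size, the median log2 fold change went from 0.04 in the bin of lowest GC content to -0.30 in the highest. Transcripts of the 4 genes have a GC content of 56.1% to 57.8%, where the bin medians are -0.18 to -0.22. With values corrected for GC content, none of the 4 was called by limma (adjusted p of 0.0707 to 0.128), nor was any other of the 62 genes. An unadjusted p under 0.05 was then found for 13 of the 62, against 20.5% of all genes. The share of all genes called as lower was then 0.73%. The median log2 fold change of the 62 genes was -0.14 with the correction, and it was below 0 for 72.6% of them, against 55.3% of all genes. That of the 9 cofactor genes went from -0.18 to -0.23, where the median of all genes was -0.04 with the correction. With the correction the log2 fold change went from -0.72 to -0.54 for Ppargc1b, from -0.48 to -0.35 for Med15, from -0.46 to -0.28 for Med25 and from -0.35 to -0.22 for Sin3b. Without any 1 mouse, 0 to 3 of the 62 genes were called, the 0 being reached without Wt mouse 2 and without mutant mouse 2. The 9 cofactor genes span a GC content of 41.9% to 56.6%, and 8 of them lie where the bin medians are -0.02 to 0.02. The exception was Gps2, at 56.6%, whose log2 fold change went from -0.39 to -0.26 with the correction. That of Thra, at 59.8%, went from 0.19 to 0.45 (adjusted p = 0.0886 by limma). Thra passed in 1 of 19 alternatives, with the GC correction and same-numbered mice taken as pairs (adjusted p = 0.00939 by limma). Exons of the oppositely directed gene Nr1d1 cover 263 bases (5.7%) of the exons of Thra. The mean value of Nr1d1 was 1.99 times that of Thra. As for Ncoa3, reads of such a stretch cannot be told apart here.

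**Figure D4:**
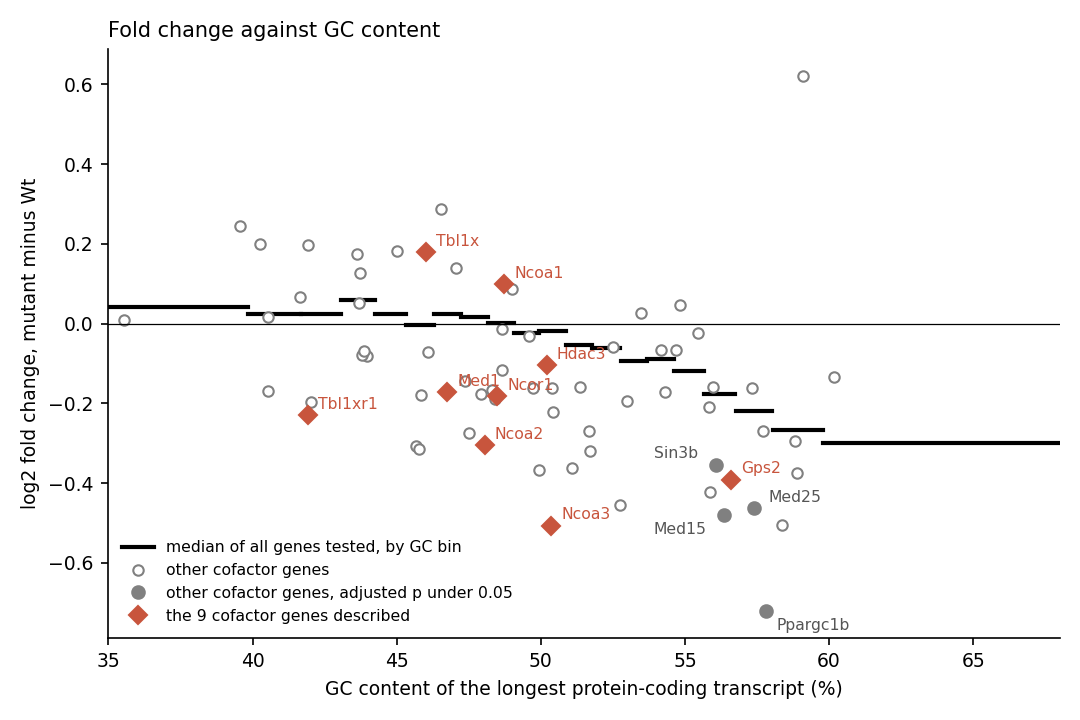
Log2 fold change of mutant minus Wt mice against the GC content of the longest protein-coding transcript in percent. Diamonds are the 9 cofactor genes, circles 61 other cofactor genes (filled where the adjusted p is under 0.05), and black lines the medians of all genes tested in 20 bins. The filled circles and Gps2 lie at the GC-rich end, where the medians are below 0, and the other 8 diamonds lie where the medians are near 0.

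For 3 of the genes, the genes tested whose levels over the 6 mice were most like theirs were listed, among 11706 candidates with a mean value of at least 5. The measure was Pearson's r of the log values over 6 mice of both genotypes, as a description. Ncor1 was most alike to Etv3 (r = 0.997), Wdr33 and Herpud1. Etv3 had a mean of 101 in Wt and 70.7 in mutant mice. Ncoa1 was most alike to Cox20 (r = 0.998), Spats2l and Fcna, and Med1 to Gabpb2 (r = 0.999), Wdhd1 and Chd2. The 6 points share the genotype difference and the spread within genotypes, and 3 genes were taken for each gene by rank.

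Promoter windows of RefSeq (GRCm38.p6, 250 bases before to 50 after a start site) were matched for 6 of the 9 genes, in 7 windows, and searched on both strands. The CRE letters TGACGTCA, the site of CREB factors, were in none of them and in 1.79% of all 32851 windows. The shorter TGACG, which is part of it, was in the windows of Tbl1x and Gps2 and in 20.8% of all windows. The letters AGGTCA, the core of receptor sites, were in none of the 7 windows (16.3% of all windows), nor were those of the E-box CACGTG (7.15% of all windows). The CCAAT letters were in the windows of Gps2 and Med1 and in 37.4% of all windows. These matches and misses describe the letters of the windows and say nothing of binding. They are printed for the genes that hold a match before the start site, with the match in capitals and 12 bases on each side, on the strand of the gene.
Tbl1x, GRCm38 chrX:77511198-77511226, plus strand, TGACG 17 bases before the start: gcccggggttggTGACGgtggacccgcca
Gps2, chr11:69913787-69913815, plus strand, CCAAT 221 bases before the start: atttctaaggagCCAATaaatactgtctt
Gps2, chr11:69913949-69913977, plus strand, CCAAT 59 bases before the start: cttccctttcctCCAATcggctgtgccgt
Med1, chr11:98192989-98193017, minus strand, CCAAT 99 bases before the start: cgctgcggcgagCCAATccgagagaggag
In GENCODE M21, which has earlier starts, the Tbl1x stretch and the second Gps2 stretch lie in a first exon, the Med1 stretch in an intron, and the first Gps2 stretch outside any transcript of the gene.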

How the data were processed

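RNA-seq libraries of inguinal fat from 3 Wt and 3 mutant mice were analysed, with genotype and mouse number taken from the labels. Total RNA was extracted with the RNeasy Plus kit. The submitters' processing notes name Bowtie2 2.1.0, RSEM 1.2.15, edgeR and the build mm10, which is GRCm38. The deposited values are a normalized signal per gene, which the authors scaled to CPM with a further factor for each mouse. Every value was a whole number of reads (within 0.01) times 1 step, so 100% whole reads were recovered. Counts from RSEM need not be whole, and whether they were rounded before scaling is not given in the sources used here. With 19607423 to 24228381 reads per mouse and at least 562 on each of the 9 genes, counting error was small for these genes. Floors cover counting error only.

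The genotypes were compared with limma 3.58.1 (R 4.3.3) with trend on log2(value + 0.5). Such fold changes understate the change of low genes. The 16868 genes kept by filterByExpr of edgeR 4.0.16 were tested, with Benjamini-Hochberg adjustment and a threshold of 0.05. An exact two-sided permutation test of 3 against 3 mice cannot go below 0.1 and was not used. Alternatives were other scalings, edgeR's quasi-likelihood test, the Wald test of DESeq2 1.42.0, other filters and pseudocounts, a correction for GC content, a replicate block, and fits without each mouse. Leaving out mouse 1 of both genotypes was chosen after seeing the data. The members, gene lists and tests were chosen with earlier results of these data known.

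GENCODE M21 on GRCm38 held 99.8% of the identifiers and gave coordinates, lengths and GC content. The genes named are the 9 members, Thra, other cofactor genes past the threshold (1 is not reported here), and the 3 genes most alike to Ncor1, Ncoa1 and Med1. Sulf2, Nr1d1, Krt19, Lep, 2 pseudogenes and the single muscle markers were named after their values were seen. Mice of a genotype differed by more than counting noise (a chi-square of 19.3 to 64.9 for each degree of freedom), and all 6 were kept as separate samples. Whether mice shared a litter or batch is not given in the sources used here.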

Additional observations from a re-analysis of the deposited data

How the results depend on the processing

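The 9 log2 fold changes kept their direction under all 19 alternatives. The count of 0 of 9 genes past the threshold held under 16 of them, and was 4 with a replicate block, 4 with the GC correction and the block, and 1 without mouse 1 of both genotypes. Of all genes, 24.1%, 18.8% and 13.6% were called in these 3 fits. Leaving out 1 mouse gave 0 of 9 in each case. With the block, Ncor1, Gps2, Ncoa2 and Ncoa3 passed (adjusted p of 0.047, 0.0153, 0.0339 and 0.0177 by limma). Over the 19 alternatives their adjusted p ranged from 0.035 to 0.531, 0.0153 to 0.41, 0.0269 to 0.351 and 0.0177 to 0.503. The block takes mice with the same number as pairs. Deviations from the genotype means correlated across genes at 0.69, 0.06 and 0.56 for same-numbered mice 1, 2 and 3. The mean correlation was 0.43 for same-numbered mice and -0.20 for mice of different number. Not every mouse correlated best with its own number. Whether same-numbered mice shared more than the number is not given in the sources used here. The cause of the added calls was not tested.

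Of the other 62 cofactor genes, 5 were called, 3 with scaling to library size only, 0 with the GC correction, 19 with the block, 12 with the GC correction and the block, 8 without mouse 1 of both genotypes, and 0 to 3 without any 1 mouse. Med15 passed under 13 of the 19 alternatives (adjusted p of 0.000404 to 0.0935), Ppargc1b under 12, Med25 under 11 and Sin3b under 8. Over all genes, 1368 were called, 2118 with DESeq2's Wald test, 598 with at least 10 reads in every mouse, 4063 with the block, 3166 with the GC correction and the block, 2326 without mouse 1 of both genotypes, and 545 to 1043 without any 1 mouse. The fits that leave out mice hold fewer animals, and the cause of none of these changes was tested. No result reversed. The intervals rest on 3 mice per genotype, and a gene that was not called may still differ within its interval.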
